A study of Solea senegalensis with 8 samples.

Results

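The gene hsp90aa of Senegalese sole (Solea senegalensis) was read by a single probe, Contig39196, of the 43441 distinct probes on an oligonucleotide microarray of this flatfish. The probe was assigned to hsp90aa because its contig number is the transcript number listed for hsp90aa in the quantitative PCR panel of the study. The match rests on the number alone, since the array files hold no gene descriptions. The probe occupied 1 spot on each array.

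The comparison was between newly hatched larvae kept at 2 salinities, with which the study tested an array designed from its new transcriptome. Embryos from spontaneous spawns of broodstock were incubated from gastrulation at 10 ppt or at 36 ppt, and whole larvae were collected at 3 days post hatch. The labels name no strain, genetic alteration or added agent for either group. RNA of pooled larvae carried one dye (Cy3), and 8 Agilent arrays of the one-colour kind were used, 4 for 10 ppt and 4 for 36 ppt. Each pool was made of whole larvae, so every tissue contributed, and fewer cells of a type and less RNA per cell cannot be told apart. The sample labels give duplicate tanks per salinity and the methods triplicate tanks, and neither says which pool came from which tank. The methods describe a single pool from each tank yet 4 pools on the arrays, so arrays of a salinity may share a tank. The p-values thus measure only the spread between these arrays.

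HSP90 is an ATP-driven chaperone of the cytosol that holds near-mature client proteins, among them steroid hormone receptors and many kinases, until they can be activated. Vertebrates have an alpha form, which is commonly induced by stress, and a beta form, which is expressed more steadily. In zebrafish larvae an alpha gene is expressed in developing skeletal muscle, where the chaperone is needed for the folding of myosin. The RefSeq gene list of Senegalese sole (assembly IFAPA_SoseM_1) names 5 members of the family: the cytosolic alpha genes hsp90aa1.1 and hsp90aa1.2, the cytosolic beta gene hsp90ab1, hsp90b1 of the endoplasmic reticulum and trap1 of the mitochondrion. The genes hsp90aa1.1 and hsp90aa1.2 are direct neighbours in that list, with 0 genes between them. Which of them Contig39196 reads, or whether it reads both, is not given in the sources used here, and the values below are uncertain to that extent.

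The PCR primers that the study lists for the same transcript number are shown because they are the only sequence tied to this transcript in the sources used here. They are printed 5′ to 3′ with the last 5 bases at the 3′ end, where extension starts, in capitals.
hsp90aa forward primer: gaccaagcctatctggacccGCAAC
hsp90aa reverse primer: ttgacagccaggtggtcctcCCAGT
Each primer has 25 bases, of which 15 are G or C (60%). The PCR measurements were not analysed here, and the primers are not the array probe.

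Salinity labels differ between the deposits, which bears on every signed value of hsp90aa. The scanner output of each array and a table of log2 values were both deposited, and each column of that table followed the scanner array of the same replicate number but the other salinity (lowest r 0.998 over 42769 spots, against a highest r of 0.664 with the array of its own label). Values below follow the scanner labels unless the value table is named, and by those labels hsp90aa was lower at 10 ppt. That is opposite to the direction the study gives for hsp90aa itself, by array and by PCR, which is the direction of the value table's labels. From the array files alone it cannot be decided which labels are right.

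Quality also differed between arrays. The number of probes well above background, a call of the scanner software that a spot is clearly brighter than its background, ranged between 4718 and 15704 on the 10 ppt arrays and between 4238 and 16184 on the 36 ppt arrays. Only replicates 1 and 3 of each salinity had a passed grid, the check of the software that spots were located, and replicates 2 and 4 of each salinity did not. Slide 1 held replicates 1 and 2 of both salinities and slide 2 held replicates 3 and 4. The negative control spots, which should bind no larval transcript, had median raw intensities of 52, 140.5, 83 and 2511 on 10 ppt replicates 1 to 4, and of 84.5, 1349, 62.5 and 1138 on 36 ppt replicates 1 to 4. On 10 ppt replicate 4 that median was above the hsp90aa spot itself, as given below. The part of array quality in the hsp90aa results was not tested beyond the comparisons by slide, by grid result and with arrays left out that are given below.

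The hsp90aa spot was dimmer on every array labelled 10 ppt than on every array labelled 36 ppt. Its processed intensity, the brightness after the software has subtracted background and spatial trends, was 2205, 1564, 1945 and 1557 on 10 ppt replicates 1 to 4. On 36 ppt replicates 1 to 4 it was 7178, 5340, 6103 and 6643. The highest 10 ppt array thus lay below the lowest 36 ppt array, and the means were 1818 ± 315 and 6316 ± 785 (SD, n = 4 each).

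The error that the software assigned to the spot was 10.2%, 20.5%, 11.3% and 37.6% of the signal on 10 ppt replicates 1 to 4, and 10.1%, 16.7%, 10.1% and 11.0% on 36 ppt replicates 1 to 4. It was largest on 10 ppt replicate 4, the array with the brightest negative controls. The hsp90aa spot was called well above background on 3 of 4 arrays at 10 ppt, replicate 4 being the exception, and on 4 of 4 arrays at 36 ppt. It was called positive and significant by the software on all 8 arrays, was saturated on 0 of 8, and carried no outlier mark.

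Before any correction, the raw median intensity of the spot was 2155.5, 1690.5, 1836 and 2365 on 10 ppt replicates 1 to 4, against 6271, 5034.5, 5520 and 5916 on 36 ppt replicates 1 to 4. The groups stood apart in raw signal as well, by 1.51 log2 units on average or 2.84-fold. The share of all probes that stood apart in raw signal was not computed. In unscaled processed intensity 66.2% of the tested probes did so, as given below. On 10 ppt replicate 4 the raw value was below the negative control median of 2511, so the raw fold rests in part on background. The order within 10 ppt was not the same as in processed intensity, since replicate 4 was the brightest of its group in raw signal and the dimmest after correction. The local background beside the spot was 38, 37, 40 and 119 at 10 ppt and 36, 76, 38.5 and 38 at 36 ppt. The 227 probe spots around it had median raw intensities of 148, 246, 199 and 745 at 10 ppt and 237, 601.5, 196 and 254 at 36 ppt. The neighbourhood of hsp90aa was thus bright on 10 ppt replicate 4 and on 36 ppt replicate 2, and on no array did it reach the hsp90aa spot.

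**Figure D1:**
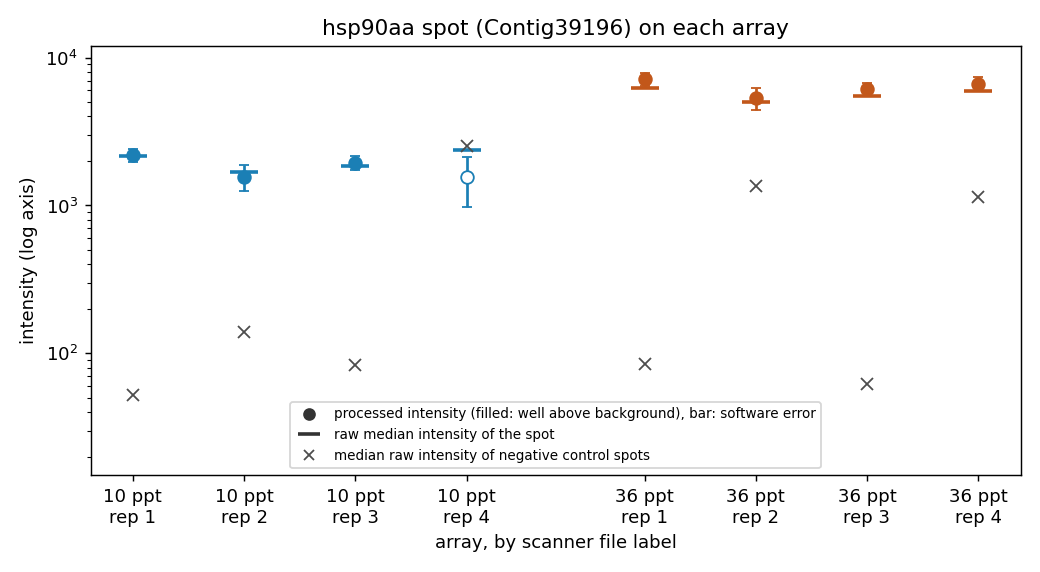
Intensity of the hsp90aa spot on each array on a log axis, arrays ordered by scanner label: circles are processed intensity (open where not well above background) with the software error as bars, dashes the raw median of the spot, crosses the median of the negative controls. The 10 ppt circles lie between 1557 and 2205 and the 36 ppt circles between 5340 and 7178, and only on 10 ppt replicate 4 is the cross above the dash.

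Arrays were not scaled to each other in the deposited intensities. Without scaling, the mean log2 difference of hsp90aa, 10 ppt minus 36 ppt, was -1.80 (3.49-fold lower at 10 ppt), the gap between the groups was 1.28 log2 units, and the exact two-sided permutation test over 4 against 4 arrays gave p = 0.0286, the smallest it can give. A gap between unscaled groups was common, however. Probes were tested where all arrays of either salinity called them well above background, which left 4595, and 66.2% of these had all 10 ppt arrays below all 36 ppt arrays in this way. The signal of hsp90aa was therefore set against that of its own array in 3 ways.

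The first was the normalized log2 signal, the log2 processed intensity minus the log2 75th percentile of the array. For hsp90aa it was 2.21, 1.34, 1.83 and 0.66 on 10 ppt replicates 1 to 4, and 2.97, 2.47, 3.09 and 3.13 on 36 ppt replicates 1 to 4. The groups still did not overlap, but the gap between 10 ppt replicate 1 and 36 ppt replicate 2 was only 0.25. Such a gap in this direction was seen for 14.5% of the tested probes. The means were 1.51 ± 0.67 at 10 ppt and 2.91 ± 0.31 at 36 ppt (SD, n = 4 each), and the exact permutation test gave p = 0.0286.

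The spread of hsp90aa was wider at 10 ppt than at 36 ppt in this measure. The 75th percentile by which hsp90aa is scaled here was 475.7, 616.4, 546.9 and 982.4 on the 10 ppt arrays and 918.1, 965.7, 715.2 and 760.3 on the 36 ppt arrays. It was highest among the 10 ppt arrays on replicate 4, where normalized hsp90aa was lowest. It was lower at 10 ppt in 3 of 4 same-numbered pairs, by 0.40 log2 units on average (exact permutation p = 0.171).

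The second way was the rank on the array, which no scaling by a constant can move. The hsp90aa probe stood at percentile 90.6, 88.9, 90.1 and 82.5 of all probes on 10 ppt replicates 1 to 4, and at percentile 93.9, 93.8, 93.9 and 94.3 on 36 ppt replicates 1 to 4. In processed intensity 4051 to 7584 probes were above it at 10 ppt and 2477 to 2699 at 36 ppt. The 7584 were on 10 ppt replicate 4, where only 4718 probes were well above background and hsp90aa was not. Its rank on that array is thus a rank among signals not clearly above background. The 36 ppt arrays were nearly equal in this measure, at 94.0 ± 0.226, against 88.0 ± 3.74 at 10 ppt (SD, n = 4 each). The difference was -5.93 percentile points (exact permutation p = 0.0286), and 25.9% of the tested probes had ranks that stood apart in this direction. From raw spot signal the rank difference was -19.3 points, with an exact permutation p of 0.0857.

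The third way was the log2 signal of hsp90aa minus the mean of 16 probes that were printed in 10 spots each and passed that background call on all 8 arrays. The design holds 40 such ten-spot probes, put there as putative housekeeping genes. The difference was -3.49, -3.76, -3.51 and -3.86 log2 units on 10 ppt replicates 1 to 4, and -2.36, -2.53, -2.46 and -2.32 on 36 ppt replicates 1 to 4. Here the spread was smallest and the groups lay far apart, with means of -3.65 ± 0.19 and -2.42 ± 0.09 (SD, n = 4 each) and a gap of 0.95. Relative to these probes hsp90aa was 2.36-fold lower at 10 ppt, a log2 difference of -1.24 (exact permutation p = 0.0286), and 37.3% of the tested probes stood apart in this way. Against all 40 ten-spot probes the difference was -1.26 and the exact permutation p was 0.0857. The normalized signal of the 16 probes themselves averaged 5.17 ± 0.49 at 10 ppt and 5.33 ± 0.24 at 36 ppt, and their difference of -0.16 had an exact permutation p of 0.629. A mean over 16 probes can hide differences of single probes, and this p does not show that they were unchanged.

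**Figure D2:**
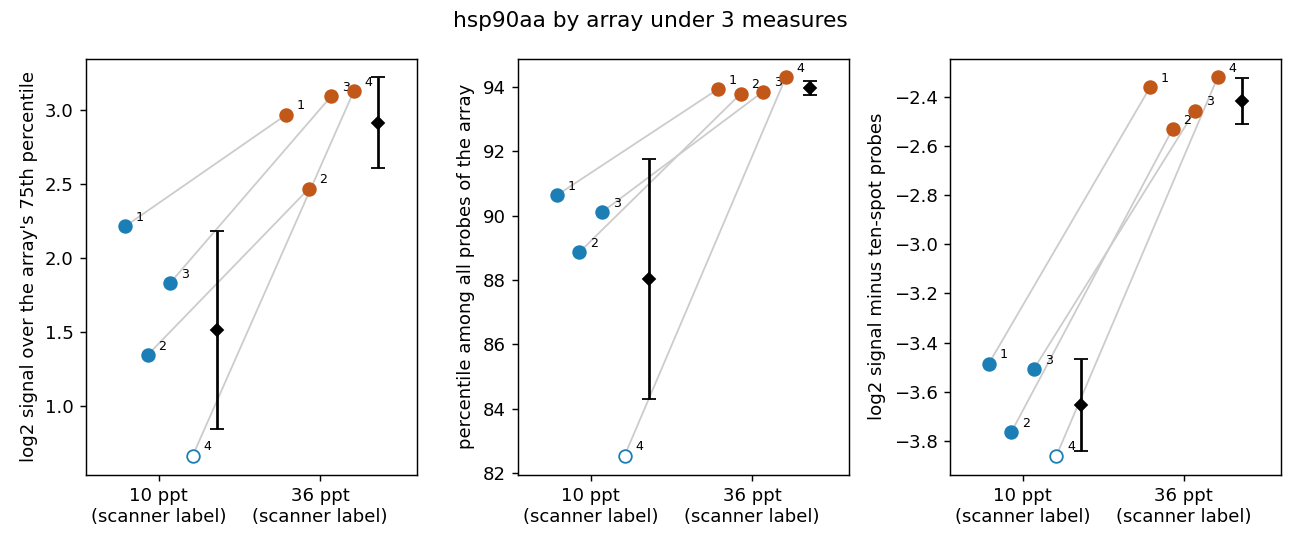
The hsp90aa probe on each array under 3 measures, with 10 ppt left and 36 ppt right in each panel (left, log2 signal over the 75th percentile; middle, percentile among all probes; right, log2 signal minus the ten-spot probes). Circles are arrays with their replicate number (open where not well above background), lines join arrays of one number, and diamonds with bars are the mean and SD of 4 arrays; the groups do not overlap in any panel, and the gap is 0.25 log2 units on the left and 0.95 on the right.

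In limma, fitted over all 4595 probes, the normalized log2 difference of hsp90aa was -1.40 ± 0.32 (SE), with a 95% interval of -2.04 to -0.77 and a Benjamini-Hochberg adjusted p of 0.000262. By the scanner labels hsp90aa was thus 2.64-fold lower at 10 ppt (interval 1.70 to 4.10). Of all tested probes, 19.9% were called lower at 10 ppt. A share of 13.8% were called lower and had an estimated difference of more than 1 log2 unit, as hsp90aa had. The call was for any difference, and the hsp90aa interval also holds differences smaller than 1 log2 unit. The share called lower depended on the scaling, since 915 probes were called lower here, against 1902 when arrays were scaled by the ten-spot probes, 3557 without scaling and 35 after normexp background correction. Leaving out 1 array gave 531 to 1911 of the 4595 probes, and 522 of 4613 to 1912 of 7809 when the filter was reapplied. The median difference of the tested probes was -0.40, so the tested set as a whole was shifted towards lower values at 10 ppt, and hsp90aa lay beyond that shift. Its difference was reached or passed by 274 probes (5.96%). Probes could enter this set through 1 salinity alone, as hsp90aa did, so the median and this rank are descriptions.

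The standard error in this fit was borrowed from all probes, since the prior degrees of freedom were estimated as infinite, and the standard error from the hsp90aa values alone was 0.37. The call was lost in tests that used the variance of each probe alone, with adjusted p = 0.176 for unequal and 0.0965 for equal variances (the limma value being 0.000262). In limma it was also lost without the filter on dim probes (adjusted p = 0.995) and with a filter of at least 1 array (adjusted p = 0.112). The probe entered the test only through the 36 ppt arrays, being well above background on all 4 there. The study also chose hsp90aa for its panel among genes that changed on these arrays, so that its p-value is not independent evidence.

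**Figure D3:**
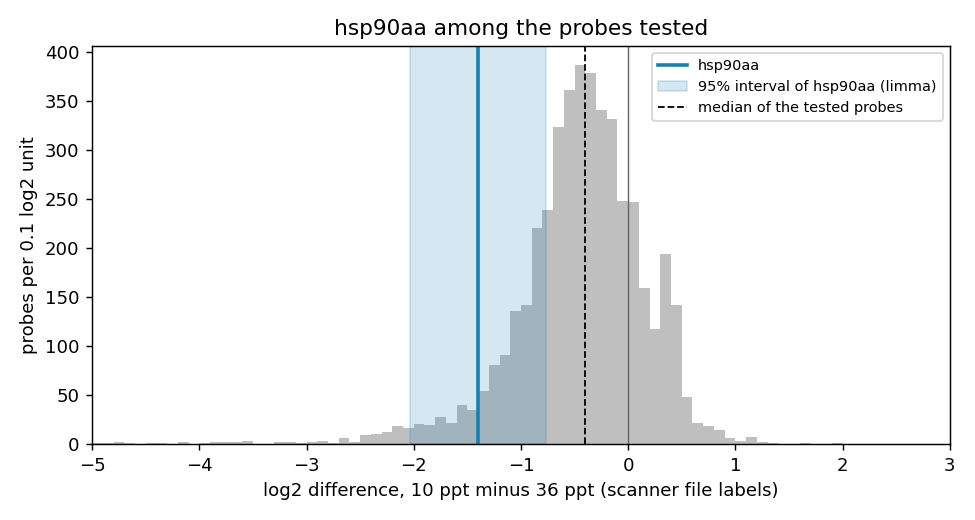
Histogram of the log2 difference, 10 ppt minus 36 ppt by the scanner labels, over the 4595 tested probes (bins of 0.1 log2 unit), with the hsp90aa difference as a solid line, its 95% interval shaded and the median of the probes dashed. The hsp90aa line at -1.40 lies left of the median at -0.40, with 5.96% of the probes at or beyond it.

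With the labels of the value table the direction turned round. There the centred log2 value of hsp90aa was 0.63, 0.12, 0.77 and 0.80 on 10 ppt replicates 1 to 4, and -0.12, -0.998, -0.51 and -1.68 on 36 ppt replicates 1 to 4. All values of the 10 ppt columns lay above all values of the 36 ppt columns, with means of 0.58 ± 0.31 and -0.83 ± 0.67 (SD, n = 4 each). The share of all probes that stood apart so was not computed for the value table. In the normalized scanner values it was 14.5% of the tested probes, in the other direction. The limma difference was 1.41 ± 0.33 (SE; adjusted p = 0.000304), or 2.65-fold higher at 10 ppt, where 19.4% of 4458 probes were called higher. Both readings rest on the same spots, since the centred scanner values and the table values of hsp90aa differed by at most 0.0147 once the labels were exchanged. The scale of the table is that of the 75th percentile shift centred on each spot, and its column medians were -0.96, 1.11, -0.98 and 0.50 for the 10 ppt columns and -0.86, 0.60, -0.51 and 0.78 for the 36 ppt columns.

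Arrays of the same replicate number shared a slide and a grid result, and hsp90aa was lower at labelled 10 ppt in 4 of 4 such pairs. That count follows from the groups not overlapping and adds nothing to it. The share of all probes that were lower in each pair was not computed. The normalized log2 differences were -0.75, -1.12, -1.26 and -2.46 for replicates 1 to 4, that is 1.69-, 2.18-, 2.40- and 5.51-fold lower. The last pair stood apart, and it holds the 10 ppt array on which hsp90aa was not well above background. Without scaling the pair differences were closer together, at -1.70, -1.77, -1.65 and -2.09, and against the ten-spot probes they were -1.12, -1.23, -1.05 and -1.54. The standard deviation of the 4 pair differences was 0.74 for the normalized signal, 0.20 without scaling and 0.12 in raw median intensity. Flipping the signs of 4 pairs cannot give a two-sided p below 0.125, which is the value for each measure. With the replicate number as a block, limma gave the same difference (adjusted p = 2.61e-05) where 25.5% of the tested probes were called lower.

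Within slide 1 hsp90aa averaged 1.78 at 10 ppt and 2.72 at 36 ppt, a difference of -0.94, and within slide 2 it averaged 1.25 and 3.11, a difference of -1.86. The 2 slide differences themselves differed by -0.92 (limma interaction, adjusted p = 0.473). On the arrays with a passed grid the averages were 2.02 at 10 ppt and 3.03 at 36 ppt, a difference of -1.01, and on those without they were 1.00 and 2.80, a difference of -1.79 (interaction adjusted p = 0.62). The direction was the same in each of these subsets, which was fixed in advance because the groups do not overlap. Only within slide 1 did limma give no call (adjusted p = 0.473), and on the passed arrays the call was lost when the detection filter was applied to those arrays alone (adjusted p = 0.0597, against 0.00738 over the 4595 probes).

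Leaving out 10 ppt replicate 4, on which hsp90aa was not well above background, gave a difference of -1.12 or 2.17-fold lower at 10 ppt (limma, adjusted p = 0.00133). When its signal was instead raised to the lowest signal well above background on that array, the difference was -1.27 (2.42-fold, adjusted p = 0.000523). Across scalings, the difference ran between -0.98 with the median of the detected probes and -1.91 with the spike-in spots, which bind control RNA added during labelling.

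**Figure D4:**
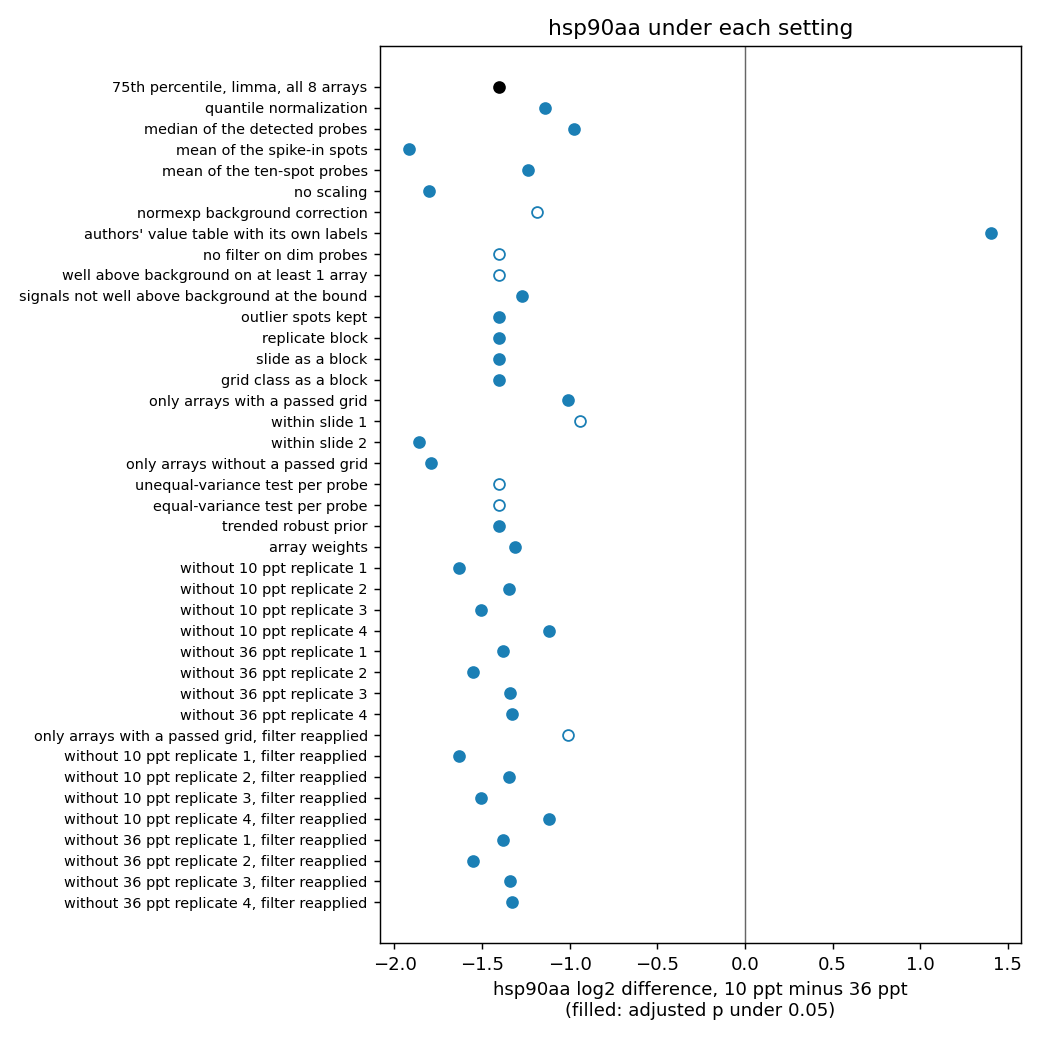
Log2 difference of hsp90aa, 10 ppt minus 36 ppt, under each setting, filled where the adjusted p was under 0.05 and open where it was not, with the setting used for the values above in black. All settings by the scanner labels lie left of 0, between -1.91 and -0.94, and the value table with its own labels lies at 1.41.

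The probes whose pattern over the 8 arrays was most like that of hsp90aa were Contig52886 and gr2_est_rep_c66153, both with Pearson r = 0.998 in normalized log2 signal among 4457 probes. These correlations are a description over points that share arrays and scaling, and high values were common. The median r over the probes was 0.808, and 34.0% of them had r of at least 0.9. Contig52886 had 3.65, 2.91, 3.23 and 2.29 on the 10 ppt arrays and 4.22, 3.80, 4.41 and 4.29 on the 36 ppt arrays. The probe gr2_est_rep_c66153 had 1.23, -0.22, 0.42 and -1.06 on the 10 ppt arrays and 2.32, 1.63, 2.44 and 2.52 on the 36 ppt arrays. As for hsp90aa, replicate 4 was the lowest array at 10 ppt and replicate 2 the lowest at 36 ppt for both. Both probes were picked for their likeness over these same arrays, so the shared order comes with the choice. Contig52886 was well above background on all 8 arrays, and its mean difference was -1.16. The probe gr2_est_rep_c66153 was so on only 2 of 4 arrays at 10 ppt, so its measured difference of -2.14 rests in part on signal not well above background. Without scaling their r was 0.997 and 0.994, and 55.6% of the probes had r of at least 0.9.

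Among 10 other genes of the study's PCR panel that had a probe of the same transcript number, taldo, the transaldolase of the pentose phosphate pathway, was closest to hsp90aa (r = 0.988). Among the panel genes that passed the detection filter, the pancreatic proteases followed. Their r was 0.940 for the chymotrypsinogen ctr2, 0.933 and 0.839 for the elastases cela4 and cela1, and 0.917 and 0.908 for the trypsinogens try1 and try2. For agt, which encodes the precursor of angiotensin, r was 0.611. The probes of lyg (a goose-type lysozyme), nkcc2 (a sodium, potassium and chloride cotransporter) and c3 (a complement protein) had r of 0.940, 0.710 and 0.353, but did not pass the detection filter.

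The hsp90aa difference was set beside those of the 7 panel genes that were tested, as a description without a p-value. Only taldo and ctr2 among them passed the background call on each of the 8 arrays. The hsp90aa difference was 0.35 log2 units further below 0 than that of taldo, which was -1.05. It was smaller in size than that of ctr2, which was -2.83, by 1.43 log2 units. At 10 ppt try1, try2, cela4 and agt were well above background on 2 of 4 arrays and cela1 on 1 of 4, against 4 of 4 at 36 ppt for each. They thus entered the fit through the 36 ppt arrays alone, and their sizes are not compared with that of hsp90aa. The hsp90aa probe also entered only through those arrays, so the comparisons with taldo and ctr2 are descriptions. The panel genes were chosen on the same arrays, so the order among them is not independent evidence either.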

How the data were processed

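RNA of pooled larvae was measured on 8 one-colour Agilent arrays, 4 per salinity. The authors deposited, per array, the spot intensity from Agilent Feature Extraction (version 9.1 per the submitters' processing notes), background-subtracted, detrended and not scaled between arrays, with the software's flags. A series-wide table of log2 values was deposited as well. From the intensity, the log2 75th percentile of the 43801 non-control spots of an array was subtracted, outlier spots were dropped and repeat spots averaged. A probe counted as well above background on an array where a share of at least 0.5 of its spots was so flagged. Probes well above background on all arrays of at least 1 salinity were tested in limma 3.58.1 (R 4.3.3) with salinity as the only term and Benjamini-Hochberg adjustment at 0.05. The fit was tested on simulated data with independent noise of equal size for all probes and arrays, which cannot check unequal arrays or probes.

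The members and lists were chosen with earlier results of these data known. Named probes were hsp90aa, the 2 probes with the highest r, and the panel genes with a contig probe. A list of HSP90 co-chaperones could not be used, since 0 of its names could be matched to probes. Same-numbered arrays deviated together from their salinity means (r of 0.359, 0.378, 0.488 and 0.432 for replicates 1 to 4 across 4458 probes). Arrays of different numbers were not compared, so whether the number itself pairs arrays was not tested. Same-numbered arrays share a slide and a grid result, not a tank, since each tank had 1 salinity. Precision is limited by the number of arrays. Alternatives covered scaling, background correction, filters, blocks, subsets, other tests and arrays left out. Added after seeing the data were the arrays without a passed grid alone, the passed or left-out subsets with the filter reapplied, and r without scaling. The PCR values were not used.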

Additional observations from a re-analysis of the deposited data

How the results depend on the processing

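By the scanner labels the hsp90aa difference stayed below 0 in every alternative run, and only the value table with its own labels turned it, to 1.41 in limma and 1.41 in the exact permutation test over arrays. Where an alternative used the same normalized values of all or some arrays, this sign was fixed in advance, because the groups do not overlap. The limma call was lost with normexp background correction (-1.19, adjusted p = 0.97), with no filter on dim probes (-1.40, adjusted p = 0.995) or a filter of at least 1 array (-1.40, adjusted p = 0.112), within slide 1 (-0.94), on passed arrays with the filter reapplied (-1.01), and with an unequal-variance test (-1.40, adjusted p = 0.176) or an equal-variance test (-1.40, adjusted p = 0.0965) per probe. The cause was not tested. The other 31 alternatives kept the call, with differences of -1.91 to -0.98 and adjusted p of at most 0.00738. Of these, 16 left out 1 array, and some of them repeated the same fit, so they are not independent of each other. In the 31, between 522 of 4613 probes (without 36 ppt replicate 4, filter reapplied) and 3557 of 4595 (no scaling) were called lower. A filter requiring all 8 arrays left hsp90aa untested.

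Leaving out 1 array gave limma differences of -1.63 to -1.12. Over the 4595 probes 531 to 1911 were called lower, against 915. With the filter reapplied the counts ran from 522 of 4613 to 1912 of 7809, and the lowest share was 568 of 5739. Exact tests gave -1.63 to -1.12 for the normalized signal (p of 0.0286 to 0.0571), -6.80 to -4.10 points for the rank (0.0286 to 0.0571) and -1.29 to -1.17 against the ten-spot probes. With 1 array left out these p-values are the lowest steps of the exact test, so they do not measure stability. With the replicate block as an exact sign-flip test over pairs, the differences were -1.40, -5.93 points and -1.24, each at p = 0.125, the smallest that 4 pairs allow, which says nothing about stability. In limma the replicate block kept the call (-1.40). From raw spot signal the rank difference was -19.3 points (exact p = 0.0857), and against all 40 ten-spot probes the difference was -1.26 (exact p = 0.0857). On 10 ppt replicate 4 the negative control median was 2511, the raw hsp90aa signal 2365 and the local background 119. The spot was not well above background there, and the cause was not tested.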
